A study of Mus musculus with 8 samples.

Results

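Cargo receptors collect newly folded proteins in the endoplasmic reticulum (ER) and hand them to the vesicles that leave for the Golgi. The expression of 8 genes for such receptors was examined in the adult mouse retina, namely Lman1, Lman2, Lman2l, Mcfd2, Surf4, Tmed2, Tmed9 and Tmed10. The genes were taken by gene name from the 18058 genes of the deposited expression table, and 8 of 8 passed the minimum mean normalized count of 10 that left 17636 genes for testing. Lman1 was chosen by its normalized counts, which rose in the comparison described here, and the others were selected on their names as its partner and fellow receptors, so the values of Lman1 are given as a description without a test. The question was whether its rise was shared by its partner Mcfd2 and by other receptors of the early secretory pathway.

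Total RNA of adult retinae was sequenced from 4 wild-type (WT) and 4 quadruple knockout (KO) samples, named A to D in each genotype. The KO mice carried knockouts of Bcan, Ncan, Tnc and Tnr together, which were combined by crossing single KO lines, and the deleted genes encode the extracellular matrix proteins brevican, neurocan, tenascin-C and tenascin-R. The WT mice came from the inbred background strain 129S2/SvPasCrl. They are described as a strain and not as littermates, retinae were pooled for RNA extraction, and an exact age is not given in the sources used here. The 4 samples of a genotype are not described as separate animals or litters, so the p-values measure only the spread between these samples.

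LMAN1, also called ERGIC-53, is a membrane lectin that cycles between the ER and the ER-Golgi intermediate compartment. It binds high-mannose glycans and works together with the soluble calcium-binding protein MCFD2, and this pair is known for the transport of coagulation factors V and VIII. The related lectins LMAN2 (VIP36) and LMAN2L (VIPL) handle glycoproteins along the same route. SURF4 is a multispanning membrane receptor for soluble secreted proteins. The p24 proteins TMED2, TMED9 and TMED10 form hetero-oligomers in COPII and COPI vesicles and carry, among others, proteins with a glycosylphosphatidylinositol anchor. The outward vesicles bear the COPII coat, and the COPI coat returns receptors and escaped residents to the ER.

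RefSeq promoter windows were available for 6 of the 8 genes. Lman1 and Tmed2 had no window, so their promoters were not searched. They run from 250 bases before to 50 bases after the gene start, in the older build GRCm38.p6. The windows of Mcfd2 and Surf4 are printed because these were the members other than Lman1 whose 4 KO values all lay above the 4 WT values. Capitals mark CCACG on either strand, which is the downstream part of the ER stress response element bound by ATF6 and XBP1. The Mcfd2 window is chr17:87265898-87266197 and the Surf4 window chr2:26933462-26933761, both read 5′ to 3′ on the minus strand.
Mcfd2: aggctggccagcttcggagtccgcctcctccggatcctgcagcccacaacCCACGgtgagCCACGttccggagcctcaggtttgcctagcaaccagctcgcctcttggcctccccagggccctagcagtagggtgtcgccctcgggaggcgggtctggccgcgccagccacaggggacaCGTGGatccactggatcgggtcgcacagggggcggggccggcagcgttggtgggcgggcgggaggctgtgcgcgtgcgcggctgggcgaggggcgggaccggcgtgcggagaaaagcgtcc
Surf4: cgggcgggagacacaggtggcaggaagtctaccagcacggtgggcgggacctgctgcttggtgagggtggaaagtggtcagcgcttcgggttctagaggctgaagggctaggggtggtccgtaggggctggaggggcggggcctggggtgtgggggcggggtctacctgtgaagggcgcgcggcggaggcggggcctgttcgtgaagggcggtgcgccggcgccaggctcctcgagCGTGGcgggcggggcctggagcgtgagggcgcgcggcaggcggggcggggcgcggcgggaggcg
The Mcfd2 window held CCACG at 3 positions, 2 on the printed strand and 1 on the other, and the Surf4 window held it at 1 position on the other strand. CCACG was found in 6 of 6 member windows, among 32.8% of all 32851 windows. The member windows had 49.7% (Tmed10) to 75.0% (Surf4) GC. The 32851 windows were neither matched for GC nor limited to the genes tested here, so these shares do not show an enrichment. CCAAT, the upstream part of the element, was found in 4 of 6 (Lman2, Lman2l, Tmed9 and Tmed10), among 37.4% of all windows. Both parts in the spacing of the full element, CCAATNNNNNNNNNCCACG, were found in 0 of 6, among 0.119% of all windows, and the second form of the element, ATTGGNCCACG, in 0 of 6, among 0.0365%. The full elements contain CCACG, so these searches overlap.

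The genes lie on 7 chromosomes in the GRCm39 build. Lman1 (ENSMUSG00000041891) was placed at chr18:66113808-66155651 on the minus strand and Mcfd2 (ENSMUSG00000024150) at chr17:87519800-87573799 on the minus strand. Lman2 (ENSMUSG00000021484) was at chr13:55491645-55510703 and Lman2l (ENSMUSG00000001143) at chr1:36457876-36484440, both on the minus strand. Surf4 (ENSMUSG00000014867) was at chr2:26807611-26823940 on the minus strand. The p24 genes were at chr5:124678758-124688930 on the plus strand for Tmed2 (ENSMUSG00000029390), at chr13:55721545-55745512 on the plus strand for Tmed9 (ENSMUSG00000058569) and at chr12:85387249-85421666 on the minus strand for Tmed10 (ENSMUSG00000021248). Lman2 and Tmed9 are thus on the same chromosome. Exons of Surf4 shared 4601 bases with the annotated exons of Surf2 on the opposite strand and 356 bases with Surf1 on its own strand. Exons of Lman2l shared 1248 bases with Fer1l5, 357 with Gm33401 and 216 with Gm70826, all on the opposite strand. Exons of Tmed10 shared 890 bases with Gm47819 on the opposite strand. The library kit kept the strand, but its use in counting is not stated in the sources used here, so part of the reads of these genes could not be assigned with certainty.

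Some libraries stood apart before any gene was compared. Of all normalized counts, the RNA of the signal recognition particle (3 gene rows) made up 19.3% (WT B) and 14.8% (WT C), against 6.82% to 8.69% in the other 6 libraries. The mitochondrial genome accounted for 3.25% (WT B) and 3.55% (WT C), against 6.29% to 7.5% in the others. The log2 differences of the members and the list medians are therefore also given against WT A and WT D alone. Of the targeted genes, Ncan was at 569 to 789 normalized counts in WT and at most 0.853 in KO, and Bcan at 197 to 327 in WT and 11.5 to 22.1 in KO. Tnr was at 5578 to 6317 in WT and 2374 to 2580 in KO, whereas Tnc was at 881 to 1592 in WT and 1024 to 1249 in KO, so that the level of Tnc did not separate the genotypes. Counts over a whole gene do not measure the loss of a part of it. The study reported lost sequence within each of the targeted genes. By western blot it did not detect their proteins in postnatal KO retina. Of the 42 tested markers on 11 lists for retinal and adjoining cell types, 0 passed the limma test, where 0.437% of all genes tested did, and 8 had an unadjusted p under 0.05, as had 16.6% of all genes. The summed level of the 4 ganglion cell markers was 19324 to 21197 in WT and 15524 to 18387 in KO, mostly from Nefl with means of 16521 and 14094. The genotypes were separate for Nefl, Rbpms and Sncg, with lower KO values, and overlapped for Pou4f1 with means of 793 in WT and 936 in KO. Over all genes tested, 3.58% had 4 KO values below the 4 WT values. On the other marker lists the genotypes were separate only for Cx3cr1 of microglia. Its KO values lay above WT, a position held by 6.16% of all genes. The part of these markers in the results was not tested. The 5 rod markers summed to 1088370 to 1483960 in WT and 1466150 to 1601180 in KO. In whole retina, fewer cells of a type and less RNA per cell cannot be told apart.

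Lman1 was higher in every KO library than in any WT library. In WT it was at 3826, 5089, 4193 and 3824 normalized counts in libraries A to D, and in KO at 6582, 6356, 6578 and 6846. The 4 KO values lay within a narrow band, and the highest WT value was that of WT B. The means were 4233 ± 596 (SD, n = 4) in WT and 6591 ± 201 (SD, n = 4) in KO, a ratio of 1.56. The log2 difference between KO and WT was 0.65 with a standard error of 0.096. Against WT A and WT D alone it was 0.78 with a standard error of 0.047. Of all 17636 genes tested, 6.16% had 4 KO values above the 4 WT values.

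**Figure D1:**
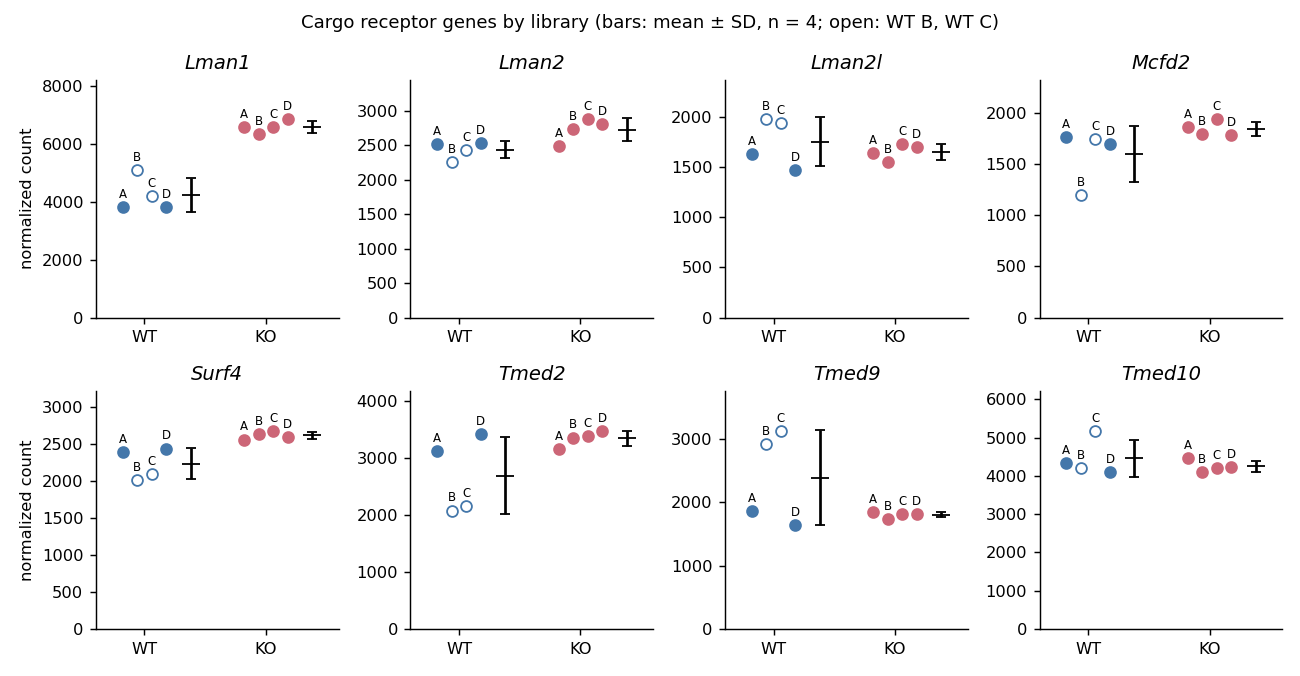
Normalized count of the 8 cargo receptor genes (vertical axes from 0) in the 4 WT (blue) and 4 KO (red) libraries, with letters for the libraries, open points for WT B and WT C, and bars for the mean ± SD (n = 4). Lman1 lies between 3824 and 5089 in WT and between 6356 and 6846 in KO, whereas the KO points of the other genes lie within or close to the range of the WT points.

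Mcfd2, the soluble partner of Lman1, differed far less. It was at 1760, 1192, 1745 and 1697 normalized counts in WT A to D and at 1858, 1789, 1934 and 1780 in KO A to D. The KO values lay just above the WT values, with 1760 as the highest WT value and 1780 as the lowest KO value, while WT B lay far below the rest. The log2 difference was 0.22 with a standard error of 0.13, and Mcfd2 did not pass the limma test across all genes (adjusted p = 0.337). Against WT A and WT D alone the log2 difference was 0.090 with a standard error of 0.056 (adjusted p = 0.564), and the KO values again lay above, a position held by 12.5% of all genes against these 2 libraries. Without WT B alone the log2 difference was 0.085.

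The other lectins did not pass the test either. Lman2, which cycles in the early secretory pathway and on to the Golgi, was at 2515, 2255, 2435 and 2535 normalized counts in WT and at 2483, 2733, 2873 and 2800 in KO. KO A lay within the WT range and the other 3 KO libraries above it. The log2 difference of Lman2 was 0.16 with a standard error of 0.073 (limma, adjusted p = 0.302). Lman2l, a lectin resident in the ER, was at 1626, 1975, 1940 and 1474 in WT and at 1635, 1552, 1731 and 1696 in KO. All 4 KO values of Lman2l lay within the WT range. Its log2 difference was −0.075 with a standard error of 0.10 (adjusted p = 0.671), and it turned to 0.094 against WT A and WT D alone. WT B and WT C held its highest values.

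Surf4 had the smallest unadjusted p of the 7 genes other than Lman1. It was at 2394, 2011, 2092 and 2438 normalized counts in WT and at 2559, 2634, 2678 and 2593 in KO. Every KO value lay above the WT values, and WT B and WT C were the lowest. The log2 difference was 0.23 with a standard error of 0.079, with an unadjusted limma p of 0.0164 and an adjusted p of 0.301. Against WT A and WT D alone it was 0.11 with a standard error of 0.047 (adjusted p = 0.397).

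None of the p24 genes passed the test. Tmed2 was at 3121, 2079, 2153 and 3420 normalized counts in WT and at 3162, 3361, 3384 and 3481 in KO. Its WT B and WT C values were far below all others, and WT D lay among the KO values. The log2 difference of 0.35 had a standard error of 0.16 (adjusted p = 0.302) and became 0.034 against WT A and WT D alone. Tmed9 had the opposite pattern, at 1861, 2925, 3128 and 1639 in WT and at 1840, 1741, 1813 and 1813 in KO. WT B and WT C stood far above, and the 4 KO values lay between WT D and WT A. The log2 difference of Tmed9 was −0.35 with a standard error of 0.20 (adjusted p = 0.333), and against WT A and WT D alone it was 0.045. Tmed10 was at 4330, 4202, 5181 and 4114 in WT and at 4458, 4101, 4210 and 4240 in KO. WT C was the highest library for Tmed10, and the others were close together in both genotypes. Its log2 difference of −0.062 had a standard error of 0.084 (adjusted p = 0.664) and became 0.010 against WT A and WT D alone.

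**Figure D2:**
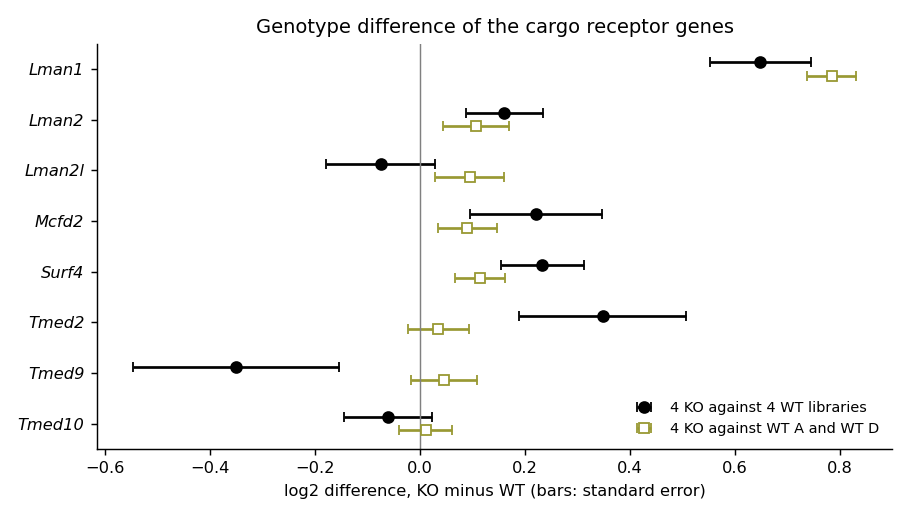
Log2 difference of KO minus WT (horizontal axis) with its standard error for the 8 genes, from all 4 WT libraries (black circles) and from WT A and WT D alone (open squares). Lman1 is at 0.65 and 0.78, whereas the other 7 genes lie between −0.35 and 0.35 with all WT libraries and between 0.010 and 0.11 with WT A and WT D alone.

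Thus 0 of the 7 genes other than Lman1 were called by limma at an adjusted p under 0.05, where 0.437% of all genes tested were called, and 1 of 7 had an unadjusted p under 0.05, as had 16.6% of all genes. Their adjusted p-values ran from 0.301 to 0.671. The 4 KO values lay above the 4 WT values in 2 of 7 and below them in 0 of 7, where the background over all genes was 6.16% and 3.58%. The median log2 difference of the 7 genes was 0.16, against −0.00018 over all genes. When the WT group was reduced to WT A and WT D, 0 of 7 were called (adjusted p from 0.397 to 0.957), where 0.563% of all genes were called. The median was then 0.090, against 0.011 over all genes, and 7 of 7 log2 differences were above 0, at 0.11 at most.

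The scatter of the 8 genes was unequal between the genotypes. The coefficient of variation over the 4 libraries ran from 5.24% (Lman2) to 31.3% (Tmed9) in WT and from 1.96% (Surf4) to 6.23% (Lman2) in KO, and it was larger in WT for 7 of the 8 genes. On the log2 scale, WT B and WT C together exceeded WT A and WT D by 0.79 for Tmed9, by 0.34 for Lman2l, by 0.27 for Lman1 and by 0.14 for Tmed10. They lay below WT A and WT D for Tmed2 (−0.63), Mcfd2 (−0.26), Surf4 (−0.24) and Lman2 (−0.11). For 6 of the 7 genes other than Lman1, this difference within WT was larger in size than the difference between the genotypes against WT A and WT D alone, and Lman2 had nearly equal values of −0.11 and 0.11. WT B and WT C did not always shift together. Mcfd2 in WT C (1745) and Tmed10 in WT B (4202) lay between the values of WT D and WT A. The share of signal recognition particle RNA was also higher in WT B and WT C, and its part in these values was not tested.

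Levels were compared between genes as normalized counts per kb of the canonical transcript. In WT, Tmed10 led with 2919 ± 321 per kb (SD, n = 4), and its lowest library exceeded the highest of every other member. Tmed9 followed with 1682 ± 526, Tmed2 with 1106 ± 278, Lman1 with 905 ± 128, Mcfd2 with 781 ± 133 and Surf4 with 681 ± 65.1, and each neighbouring pair from Tmed9 to Surf4 overlapped in range. Lman2 with 551 ± 28.9 lay below the whole range of Surf4 and overlapped Lman2l with 513 ± 71.4. By this measure the WT levels of the members stood between the percentiles 77.3 (Lman2l) and 97.2 (Tmed10) of 17554 genes. In KO, Lman1 with 1409 ± 42.9 per kb moved from the fourth to the second place, where its range overlapped that of Tmed2 with 1375 ± 54.9 and lay above that of Tmed9 with 1269 ± 29.9. The order of Mcfd2 (899 ± 35.0), Surf4 (797 ± 15.7), Lman2 (616 ± 38.3) and Lman2l (484 ± 23.0) was the same as in WT, and no ranges of neighbours among these 4 overlapped in KO.

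The level of Lman1 per kb relative to each other member is a description, since Lman1 was chosen for its rise. The ratio of Lman1 to Mcfd2 was 0.952, 1.87, 1.05 and 0.987 in WT A to D and 1.55, 1.56, 1.49 and 1.68 in KO A to D. The KO ratios lay above WT A, WT C and WT D but below WT B, in which Mcfd2 was lowest and Lman1 highest among the WT libraries. The ratio of Lman1 to Lman2 had a mean of 1.66 ± 0.331 in WT and 2.30 ± 0.154 in KO, and that to Lman2l a mean of 1.77 ± 0.150 in WT and 2.92 ± 0.0955 in KO (SD, n = 4). The genotypes did not overlap in the ratios to Lman2, Lman2l, Tmed9 and Tmed10, and they overlapped through WT B in the ratios to Mcfd2 and Surf4 and through WT B and WT C in the ratio to Tmed2.

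**Figure D3:**
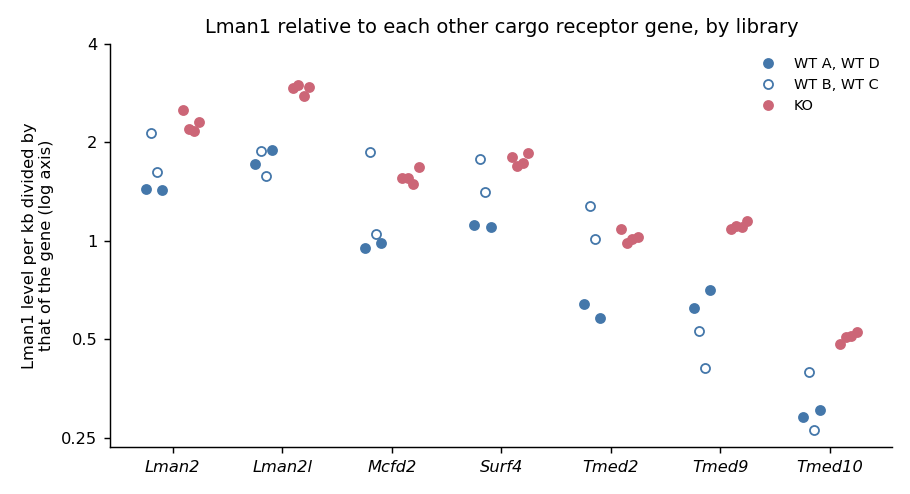
Level of Lman1 per kb divided by that of each other member (log axis) in each library, with filled blue points for WT A and WT D, open points for WT B and WT C, and red points for KO. The KO points lie above WT A and WT D for every member, and WT B reaches or passes the KO points for Mcfd2 and Surf4, as do WT B and WT C for Tmed2.

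The genes whose pattern over the 8 libraries was most like that of Lman1 were not among the members. Over the 12629 genes whose mean reached 100, the highest Pearson r on the log2 scale was that of Tmem181c-ps (r = 0.997), followed by Tmem181b-ps (0.982), Pccb (0.981), which encodes a subunit of the mitochondrial propionyl-CoA carboxylase, and Col19a1 (0.965), a collagen gene. Gm14305 (0.947), Gm14295 (0.936), Sec62 (0.935), Gm14326 (0.935), Hnrnpdl (0.930) and Gm4631 (0.927) completed the 10. Sec62, a subunit of the ER translocon machinery, was the only one of these from the pathway lists. It was at 4677, 4934, 4675 and 4654 normalized counts in WT and at 4966, 5019, 5079 and 4944 in KO. The pseudogenes and the Gm genes on chromosome 2 have near-identical copies, so their counts are uncertain. Gm14295 and Gm14326 were at 0 in every WT library, with KO means of 349 and 454. Gm14305 had means of 1.97 in WT and 584 in KO, so a high r can go with a far larger difference than that of Lman1. The other members ranked lower, Surf4 at 985 (r = 0.568), Lman2 at 1151 (0.547), Tmed2 at 3368 (0.348) and Mcfd2 at 4491 (0.245), with Lman2l at 0.012, Tmed9 at −0.27 and Tmed10 at −0.28. These correlations describe 8 libraries that share the genotype difference and the shift of WT B and WT C. Lman1 was chosen for its rise in the same values. The ranks thus partly restate the genotype differences of the genes and are not a separate result.

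The wider pathway was examined with 9 lists of 133 tested genes, which exclude the members. By limma, 0 of the 133 were called, where 0.437% of all genes were called. An unadjusted p under 0.05 was found for 25 of them, 22 with a higher and 3 with a lower level in KO, which is 18.8%, against 16.6% of all genes. The 4 KO values lay above the 4 WT values for 18 genes (13.5%, against 6.16%) and below them for 3 (2.26%, against 3.58%). The median log2 difference was 0.050 over the 133 genes, against −0.00018 over all genes. Against WT A and WT D alone, 0 were called, and the median was 0.062, against 0.011 over all genes. In that comparison 37 genes lay above (27.8%, against 12.5%) and 4 below (3.01%, against 9.77%).

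The 6 other p24 genes had log2 differences from −0.18 (Tmed3) to −0.00036 (Tmed8), with a median of −0.076, and the genotypes overlapped for all 6. Tmed3 was at 604, 796, 842 and 603 normalized counts in WT and at 607, 637, 641 and 600 in KO, so that WT B and WT C stood above the others as for Tmed9. Against WT A and WT D alone its log2 difference turned to 0.041, and the median of these genes to 0.053.

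Among 14 other cargo and retrieval receptors, the 4 KO values lay above WT for 4 genes, against 6.16% of all genes. The median log2 difference was 0.046 (0.084 against WT A and WT D). Ergic1, which encodes a membrane protein of the ER-Golgi intermediate compartment, had the largest log2 difference of 0.60 with a standard error of 0.20 (adjusted p = 0.301). It was at 1936, 1100, 1213 and 2074 normalized counts in WT and at 2080, 2432, 2376 and 2364 in KO. WT D nearly reached KO A, and the difference fell to 0.20 on the log2 scale against WT A and WT D alone. Ergic2, from the same family, was at 1272, 927, 1108 and 1066 in WT and at 1314, 1339, 1569 and 1310 in KO. Its log2 difference was 0.34 with all WT libraries and 0.24 against WT A and WT D. The other 2 were Bcap29, an ER membrane chaperone gene, with log2 differences of 0.45 and 0.082 in the same comparisons, and Mia2, which acts at ER exit sites, with 0.078 and 0.11.

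Among the coat genes, 13 of 15 for COPII and 7 of 15 for COPI had a log2 difference above 0 with all WT libraries. Against WT A and WT D alone the lists were closer, with medians of 0.052 for COPII and 0.047 for COPI, where the median over all genes was 0.011. Of 15 COPII genes, 2 had KO values above WT, against 6.16% of all genes. These were the inner coat subunits Sec23b (log2 difference 0.25, 0.15 against WT A and WT D) and Sec24d (0.43 and 0.20). The list median was 0.14 (0.052 against WT A and WT D). Sec24d was at 332, 237, 240 and 329 normalized counts in WT and at 377, 394, 354 and 389 in KO. Of 15 COPI genes, Copb1 (0.26 and 0.10) and the small GTPase gene Arf1 (0.17 and 0.062) lay above WT, and the coat subunit Cope lay below it (−0.33 and −0.18). Over all genes tested, 6.16% lay above WT and 3.58% below. The largest COPI difference was that of Gbf1, an activator of Arf1, at −0.35 (−0.091 against WT A and WT D), and its genotypes overlapped. The COPI median was −0.011 and turned to 0.047 against WT A and WT D.

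Of the 18 genes for ER-Golgi tethers and SNAREs, 1 lay above WT, against 6.16% of all genes. It was Gorasp2, a Golgi stacking protein gene, with a log2 difference of 0.16 (0.12 against WT A and WT D). The SNARE gene Use1 had the largest difference at −0.54, which shrank to −0.033 with only WT A and WT D. Use1 was at 1748, 3391, 3718 and 1785 normalized counts in WT and at 1809, 1790, 1729 and 1587 in KO, so that WT B and WT C stood alone. The list median was −0.057 and turned to 0.044 against WT A and WT D.

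Of 16 genes for glycoprotein folding and quality control, Edem2 and Os9, which act in ER-associated degradation, lay above WT, with log2 differences of 0.23 and 0.21 (0.24 and 0.073 against WT A and WT D). This position was held by 6.16% of all genes. Edem2 was at 588, 618, 672 and 681 normalized counts in WT and at 736, 735, 807 and 724 in KO. Sel1l, from the same degradation pathway, had the largest difference of the list at −0.46, with overlapping genotypes, and −0.033 against WT A and WT D alone. The list median was 0.0021 (0.054 against WT A and WT D).

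Of 24 genes of the unfolded protein response, the 4 KO values lay above WT for Dnajc3, an ER co-chaperone gene (log2 difference 0.25), and for the stress sensor gene Atf6 (0.21), and below WT for Chac1, a target of ATF4 (−0.64). These were 0.11, 0.097 and −0.64 against WT A and WT D alone. Over all genes tested, 6.16% lay above the 4 WT values and 3.58% below. Chac1 was at 49.9, 54.9, 38.7 and 43.3 normalized counts in WT and at 25.7, 26.4, 36.2 and 30.6 in KO, and its value did not depend on WT B and WT C (standard error 0.19, adjusted p = 0.301). The list median was 0.039 (0.093 against WT A and WT D).

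Of 20 genes of the signal recognition particle and translocon, the 4 KO values lay above WT for Srp54c, Sec61g, Ssr3, Sec61a1 and Sec62 and below WT for Srp9. Over all genes tested, 6.16% lay above and 3.58% below. The list median was 0.13 (0.069 against WT A and WT D). Srp54c had the largest log2 difference at 0.70, which fell to 0.12 on the log2 scale against WT A and WT D alone, and near-identical Srp54 copies make its counts uncertain. Sec61a1, the pore subunit of the translocon, was at 2083, 1803, 2120 and 2193 normalized counts in WT and at 2250, 2534, 2599 and 2471 in KO. Its log2 difference was 0.27 with a standard error of 0.083 (adjusted p = 0.301), and 0.20 against WT A and WT D.

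Known cargo was represented by 5 tested genes, with a median log2 difference of 0.056, which was −0.0025 with WT A and WT D. With all WT libraries the genotypes overlapped for all 5, and the log2 differences ran from −0.088 (Ctsc) to 0.78 (F5). With WT A and WT D they ran from −0.25 (Ctsc) to 0.18 (Ctsz). F5, the gene of coagulation factor V, was low, at 50.8, 23.4, 16.6 and 71.6 normalized counts in WT and at 43.5, 57.7, 55.0 and 95.1 in KO. Its log2 difference of 0.78 had a standard error of 0.45 (adjusted p = 0.337) and became −0.0025 with WT A and WT D. F8, the gene of factor VIII, was at 579, 362, 395 and 541 in WT and at 479, 534, 567 and 492 in KO. Its log2 difference was 0.17 with all WT libraries and turned to −0.11 with WT A and WT D.

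**Figure D4:**
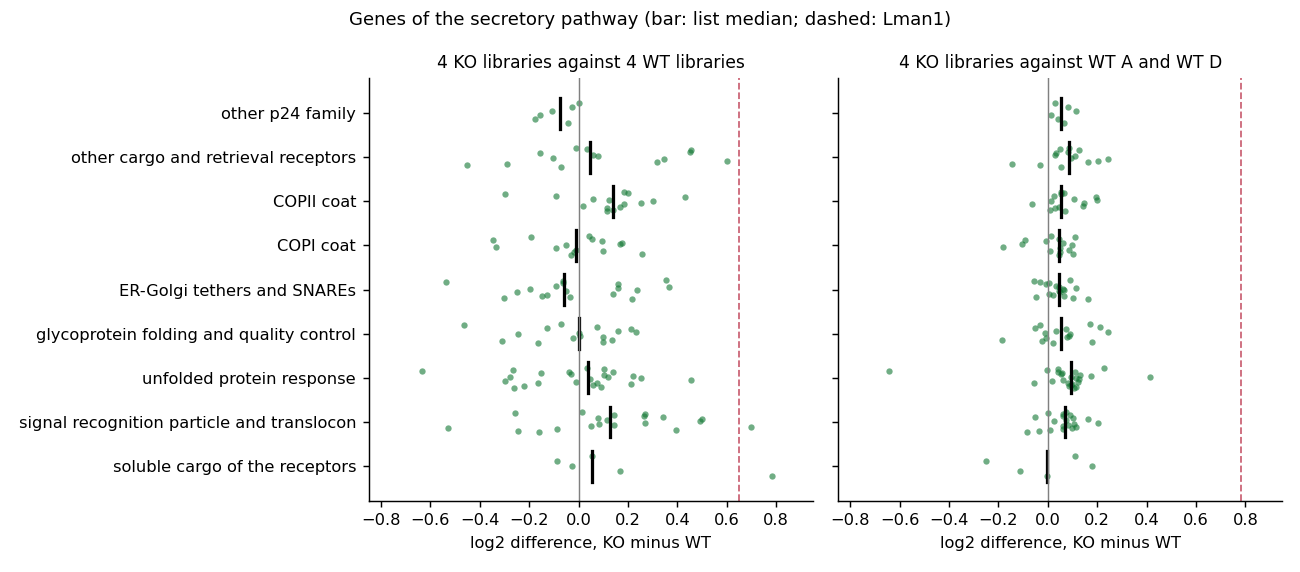
Log2 difference of KO minus WT (horizontal axes) for the 133 tested genes of 9 pathway lists, 1 point a gene, against all 4 WT libraries (left) and against WT A and WT D alone (right), with a bar at each list's median and a dashed line at Lman1 (0.65 left, 0.78 right). Against all WT libraries 2 genes, Srp54c and F5, reach the line, and against WT A and WT D alone the largest difference in size is −0.64, of Chac1.

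The genes next to Lman1 were also read. Of 17 tested genes that start within 1 Mb of the start of Lman1 (the lower coordinate of each gene), 0 were called by limma, where 0.437% of all genes were called, and 4 had an unadjusted p under 0.05, as had 16.6% of all genes. Their log2 differences ran from −0.92 to 0.85 with a median of −0.0032, which was 0.11 against WT A and WT D. The nearest, Cplx4, a complexin gene of the retinal ribbon synapse 25.0 kb away, was at 9502, 11321, 12552 and 9681 normalized counts in WT and at 11072, 10225, 11584 and 10875 in KO. The genotypes overlapped, with a log2 difference of 0.031 (adjusted p = 0.863), while against WT A and WT D alone the KO values lay above WT, with a log2 difference of 0.19 and a standard error of 0.055 (adjusted p = 0.251). Sec11c, a catalytic subunit of the ER signal peptidase 181 kb away, was at 566, 549, 578 and 550 in WT and at 673, 599, 703 and 720 in KO. All KO values of Sec11c lay above WT, with a log2 difference of 0.26 and a standard error of 0.083 (adjusted p = 0.301), and of 0.27 against WT A and WT D alone. The genotypes were also separate for the long non-coding RNA Gm50221 (0.85, adjusted p = 0.301, and 0.45 against WT A and WT D), with 39.3 to 75.3 in WT and 95.4 to 114.7 in KO, and for Pmaip1, a pro-apoptotic BCL2 family gene (−0.81, adjusted p = 0.301, and −0.51 against WT A and WT D), with 19.1 to 39.4 in WT and 11.1 to 17.95 in KO. The genotypes overlapped for the remaining 14, where 9.74% of all genes tested had separate genotypes. Alpk2 was at 531 to 755 in WT and 752 to 945 in KO, with a log2 difference of 0.41 (adjusted p = 0.301), and of 0.29 against WT A and WT D. The other neighbours were Rax, Raxos1, Grp, Ccbe1, Mc4r, Malt1, Zfp532 and the predicted loci Gm41757, Gm41760, Gm37643, Gm50115 and Gm50462, with adjusted p-values from 0.378 to 0.993.

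Of the other 500 tested genes on chromosome 18, 11 were called (2.20%, against 0.437% of all genes), 3 of them higher in KO. They started 20.7 to 56.1 Mb from the start of Lman1, all at lower coordinates. Most were grouped at −56.1 to −53.1 Mb from it, between Usp14 and Gm49970. The others were Sap130 at −34.3 Mb (log2 difference 0.88), Stard4 at −32.8 Mb (−0.87) and Kcnn2, which was the nearest. Kcnn2 had a log2 difference of −0.55 (limma, adjusted p = 0.0332), and of −0.54 against WT A and WT D. None of the 4 targeted genes lies on this chromosome.

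**Figure D5:**
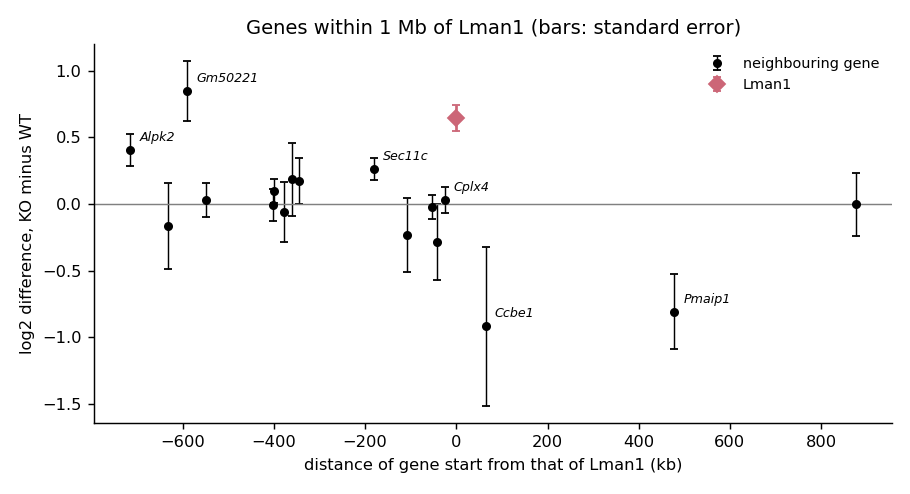
Log2 difference of KO minus WT with its standard error (vertical axis) against the distance of the gene start from that of Lman1 in kb (horizontal axis), for Lman1 (red diamond) and the 17 tested genes within 1 Mb (black points). Lman1 is at 0.65, Cplx4 at −25.0 kb is at 0.031 and Sec11c at −181 kb is at 0.26.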

How the data were processed

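Libraries were prepared from 450 ng of total RNA with a directional kit. Per the submitters' processing notes and the methods of the study, the authors trimmed reads with Trim Galore 0.6.7, aligned them with STAR 2.7.9a to GRCm39, quantified genes with Salmon 1.5.2 and normalized with DESeq2 1.32.0 in R 4.1.1. The authors deposited a table of normalized counts by library, made from estimated gene counts by scaling, which keeps no depth, and their own fold changes and p-values, which were not used. Depth is therefore unknown here, and no counting interval is given.

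Normalized counts were analysed as log2(value + 1). Genes with a mean of at least 10 were fitted with limma 3.58.1 (R 4.3.3; lmFit, then eBayes, trend on), 4 KO against 4 WT libraries without covariates, with Benjamini-Hochberg adjustment over 17636 genes, and calls at an adjusted p under 0.05. Fold changes are on the log2(value + 1) scale, which understates the change of low genes. Values are means ± SD over libraries. The step was tested on simulated data. Positions, exons and canonical transcripts came from GENCODE M39 (GRCm39), which held 17969 of the 18058 genes, and promoter windows from RefSeq (GRCm38.p6). Summaries used Python 3.11.15.

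The members, the gene lists and the tests were chosen with earlier results of these data known. Named were the members; in each pathway list every called gene, the gene with the largest difference and every gene with separate genotypes; every tested gene within 1 Mb of Lman1; and the 10 genes, of mean 100 or more, most correlated with Lman1. F8, Ctsc, Ctsz, Tmed8, Kcnn2, Stard4, Sap130, Usp14, Gm49970, Cx3cr1, the ganglion cell markers and the targeted genes were added after their values were seen. Genes without a row, among them Lman1l, Tmed6 and Tmed11, were not analysed here, and Kdelr3 was below the minimum mean. Alternatives comprised median-ratio rescaling, quantile normalization, no minimum or a minimum mean of 100, pseudocounts of 10 and 0.1, other prior settings, array weights, the letter as a block, WT A and WT D alone, and leaving out each library.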

Additional observations from a re-analysis of the deposited data

Results flagged for a closer look

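Mcfd2 in WT B, at 1192 normalized counts, lay far from the other WT libraries at 1697 to 1760. Its gap to the nearest of them was 0.888 of the whole WT range, above the 95% critical value of Dixon's test for 4 samples, which chance passes in about 1 in 20 groups. WT B was also the WT library with the highest Lman1 level, at 5089. The 8 genes in 2 genotypes gave no other value beyond the critical one.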

How the results depend on the processing

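Under 19 alternatives, the number of called members besides Lman1 and of called pathway genes was 0 in each, and the log2 difference of Lman1 ran from 0.60 to 0.78. Without WT B it was 0.74. Signs turned for 3 members, none of them called. Lman2l was at 0.032 with array weights and 0.094 against WT A and WT D alone, where Tmed9 was at 0.045 and Tmed10 at 0.010. Leaving out each library in turn gave −0.099 to 0.012 for Tmed10, the latter without WT C. The number of genes called rose from 77 to 143 with array weights, which gave WT B and WT C weights of 0.164 and 0.156, and fell to 51 with the letter as replicate block. Leaving out each library gave 54 to 89 calls. Deviations of same-letter libraries from their genotype means correlated between −0.11 and 0.098, so the letters were not treated as pairs, and the block changed no call of a member. The smallest adjusted p of any member besides Lman1 under any alternative was 0.0787 (Tmed2). The median log2 difference of all genes stayed within 0.015 of 0. Causes of these changes were not tested. With 4 libraries each, the standard errors of the 8 genes ran from 0.073 to 0.20 on the log2 scale, and depth is unknown.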
